A study of Mus musculus with 6 samples.

Results

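The transcripts described here are those of the subunits of RNA polymerases I, II and III and of the Mediator complex. They were taken as all gene names that begin with Polr1, Polr2, Polr3 or Med and a digit and that reached at least 1 CPM (a gene's reads scaled to a common library size) in 3 or more libraries. All 59 names that match passed this minimum, of 32531 gene rows in the tables: 5 of polymerase I, 13 of polymerase II, 10 of polymerase III and 31 named Med. Med9os is an antisense transcript next to Med9 and not a Mediator subunit, so 30 of the 31 Med names are subunits. All 59 passed the filter on low counts and were tested. The rule uses no difference between the groups, but it was set with earlier results of these data known.

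RNA polymerase I makes the large ribosomal RNA precursor, polymerase II makes messenger RNA, and polymerase III makes transfer RNA, the smallest ribosomal RNA and other short RNAs. Each is built around a pair of large subunits that form the active centre, with smaller subunits around them, and some small subunits are common to all of these enzymes. Mediator is a large assembly with head, middle, tail and kinase modules that passes signals from DNA-bound activators to polymerase II at promoters. All of them act in the nucleus of every cell type of the thalamus, neurons and glia alike, and their messenger RNAs are translated in the cytoplasm, where ribosome-bound RNA is collected.

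The IP libraries (n = 3) held RNA from ribosomes immunopurified with anti-EGFP antibodies from the dissected thalamus of adult, untreated Slc17a6-EGFP/Rpl10a mice of line JX883, and the Input libraries (n = 3) came from thalamus of the same line, so both groups carried the transgene. In this method, TRAP, an EGFP-tagged ribosomal protein marks the ribosomes of one cell class; the line is named for Slc17a6, the vesicular glutamate transporter gene of thalamic relay neurons. The labels name ribosomal-bound RNA as the molecule of Input as well, and they state neither pooling nor that each replicate is another animal. The p-values therefore measure only how far these libraries spread, which may be technical. Gene reads numbered between 44081149 and 54421395 per library, so that 3 reads equal 0.0551 to 0.0681 CPM. CPM values below are scaled with TMM factors.

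Markers of the tagged cells were present in IP. The summed level of 5 thalamic glutamatergic markers was 4894 to 9052 CPM in IP and 1411 to 4898 CPM in Input, with 1 of them called higher, and that of 5 general neuronal markers 16549 to 23666 CPM in IP and 13262 to 15329.9 CPM in Input, with 2 called higher. Markers of other cells were lower in IP but none of them was at 0 over the IP libraries. The 6 oligodendrocyte markers summed to 148 to 266 CPM in IP and 3339.7 to 4921 CPM in Input (6 called lower), the 5 astrocyte markers to 11.9 to 14.2 CPM in IP and 189 to 353 CPM in Input (4 lower), the 5 microglial markers to 1.73 to 3.08 CPM in IP and 33.9 to 58.1 CPM in Input (4 lower) and the 3 GABAergic markers to 51.6 to 128 CPM in IP and 672 to 961 CPM in Input (3 lower). Precursor, mural and endothelial markers summed to at most 3.46 CPM in IP per list and to at least 5.11 CPM in Input. Input replicate 3 stood apart, with 1171 CPM of 4 choroid plexus and ependymal markers (at least 40.7 CPM in Input), 1924 CPM of 6 cortical and striatal markers (at least 785 CPM in Input) and the lowest thalamic sum. IP replicate 1 had the lowest value of the IP group for 32 of the 59 transcripts, and 45.03% of its records aligned at more than 1 place, against 38.5% and 38.9% in the other IP libraries. In Input this share was 23.6% to 27.2%, so it differed between the groups as well. The part of these mixtures and shares in the differences below was not tested. In bulk RNA, fewer cells of a type and less RNA per cell cannot be told apart.

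Most small subunits of polymerase II were at higher levels in IP than in Input, while the values of its catalytic pair overlapped between the groups. Of the 59 transcripts, 16 were higher and 3 lower in IP (edgeR quasi-likelihood test, adjusted p under 0.05 over 16496 genes), and 40 did not pass. Over all genes tested, 9.6% were called higher and 15.6% lower. By complex the calls were 8 higher and 0 lower of 13 for polymerase II, 6 and 2 of 31 for Mediator, 1 and 1 of 5 for polymerase I, and 1 and 0 of 10 for polymerase III. The median log2 fold change of IP over Input was 1.08 for polymerase II, 0.32 for Mediator, 0.37 for polymerase I and 0.14 for polymerase III, beside -0.040 for all genes tested. For 23 of the 59 transcripts the groups did not overlap upward, with every IP library above every Input library, against 19.9% of all genes tested, and 6 had every IP library below every Input library, against 25% of all genes tested. The 16 called higher and the 3 called lower were all among them.

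**Figure D1:**
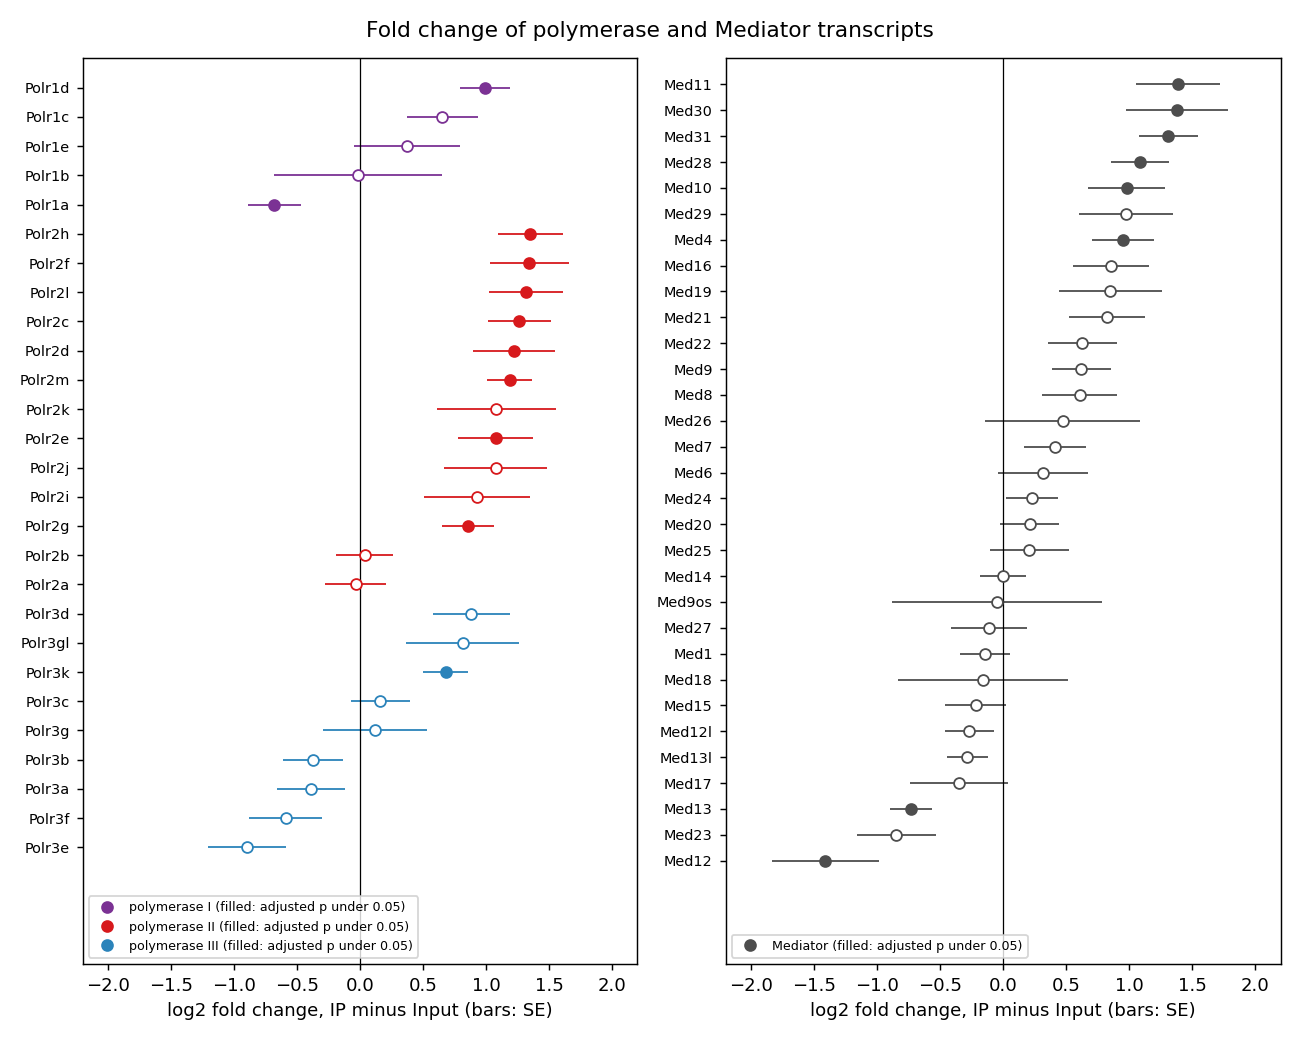
Log2 fold change of IP minus Input (x axis) for 58 of the 59 transcripts (rows), with SE bars and n = 3 libraries per group, ordered by value within each complex; filled points have an edgeR adjusted p under 0.05. The polymerase II points lie between -0.03 and 1.35 with 8 filled, and the Mediator points between -1.41 and 1.39 with 6 filled on the right and 2 on the left.

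These counts rested on single libraries in part. The counts of higher and lower transcripts were 16 and 2 without IP replicate 1, 8 and 0 without IP replicate 2, and 9 and 0 without IP replicate 3. They were 11 and 2 without Input replicate 1, 11 and 1 without Input replicate 2, and 20 and 3 without Input replicate 3. Over all genes the count of higher genes ranged in the same 6 fits from 731 without IP replicate 2 to 1640 without Input replicate 3, against 1583 with all libraries. Polr1d, Polr2c, Polr2h, Polr2l, Polr2m, Med28 and Med31 kept their call in all 6 fits, and the other 12 called transcripts lost it in at least 1. With the replicate number of the titles as a block, 23 were higher and 5 lower, beside 15.9% and 19.2% of all genes in that fit, and all 16 and 3 were among them.

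Polymerase II is represented by its core subunits and by one associated protein, Polr2m. Its transcripts summed to 1138, 1017 and 1109 CPM in IP replicates 1, 2 and 3, against 515, 548 and 594 CPM in Input. Every IP library lay above every Input library in this sum, of which Polr2m gave a large share. The median log2 ratio within replicates 1, 2 and 3 was 1.25, 0.88 and 1.01.

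Polr2m, which encodes Gdown1, a protein that binds polymerase II and makes its activity depend on Mediator, lies on chromosome 9 from 71478437 to 71485935 (GRCm38, minus strand). It had 686, 567 and 659.6 CPM in IP, against 249.7, 264 and 327 CPM in Input, in replicates 1, 2 and 3. All IP libraries stood above all Input libraries, and the log2 fold change was 1.19 ± 0.18 (SE; adjusted p by edgeR = 0.00292). Without 1 library its log2 fold change ranged from 1.12 to 1.32 and it passed each time.

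The 5 subunits common to polymerases I, II and III, Polr2e, Polr2f, Polr2h, Polr2k and Polr2l, each had every IP library above every Input library, and 4 of them were called higher. Their median log2 fold change was 1.32. Polr2h, a small core subunit, had 57.2, 38.6 and 35.6 CPM in IP, against 14.4, 16.5 and 20.6 CPM in Input, a log2 fold change of 1.35 ± 0.26 (adjusted p by edgeR = 0.00733). Polr2f, which helps to hold the largest subunit in the assembled enzyme, had 36.5, 37.6 and 36.1 CPM in IP, against 8.45, 14.5 and 20.5 CPM in Input. The IP values lay close together and the Input values spread widely, and the log2 fold change was 1.34 ± 0.31 (adjusted p by edgeR = 0.0159), a call that ended without IP replicate 2 or Input replicate 2 (adjusted p by edgeR = 0.0548 and 0.0570). Polr2l, which takes part in the assembly of the enzyme, had 17.3, 12.95 and 13.9 CPM in IP, against 5.09, 6.92 and 5.72 CPM in Input, a log2 fold change of 1.32 ± 0.29 (adjusted p by edgeR = 0.0127). Polr2e, a subunit that contacts downstream DNA, had 33.00, 58.02 and 54.6 CPM in IP, against 15.8, 26.1 and 27.1 CPM in Input. Its groups did not overlap and its log2 fold change was 1.08 ± 0.30 (adjusted p by edgeR = 0.0297), but it did not pass without IP replicate 2, IP replicate 3, Input replicate 1 or Input replicate 2 (adjusted p by edgeR between 0.0627 and 0.109) or with an offset for GC content (adjusted p by edgeR = 0.0693). Polr2k, another small core subunit, had 3.49, 4.47 and 3.73 CPM in IP, against 1.65, 2.43 and 1.43 CPM in Input, and its log2 fold change of 1.08 ± 0.47 missed the threshold (adjusted p by edgeR = 0.129). Polr2h and Polr2k have near-identical pseudogene copies in the annotation, Gm7511 and Gm46136, so their counts are less certain. Polr2f shares 27.7% of its transcript bases, Polr2i 39.7% and Polr2c 13.9% with a coding gene on the opposite strand, where reads can be split or set aside as ambiguous.

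Of the 5 small subunits that belong to polymerase II alone, 3 were called higher. Polr2c, which pairs with Polr2j to start the assembly of the enzyme, had 21.9, 17.4 and 18.6 CPM in IP, against 7.19, 8.57 and 8.35 CPM in Input. Its 3 IP values lay far above the 3 Input values, and its log2 fold change was 1.26 ± 0.25 (adjusted p by edgeR = 0.00837). Its partner Polr2j had 17.03, 39.8 and 40.7 CPM in IP, against 9.54, 22.3 and 14.3 CPM in Input. IP replicate 1 fell inside the Input range, and the log2 fold change of 1.08 ± 0.41 missed the threshold (adjusted p by edgeR = 0.0872), whereas it passed with the replicate block (adjusted p by edgeR = 0.00536) and without IP replicate 1 (log2 fold change 1.40, adjusted p by edgeR = 0.0309). Polr2d and Polr2g form the stalk through which the new RNA leaves. Polr2g had 109.7, 84.2 and 95.5 CPM in IP, against 46.1, 48.8 and 64.8 CPM in Input, a log2 fold change of 0.86 ± 0.21 (adjusted p by edgeR = 0.0178), and did not pass without IP replicate 3 or Input replicate 2 (adjusted p by edgeR = 0.0557 and 0.0745). Polr2d had 19.6, 23.4 and 25.6 CPM in IP, against 8.13, 14.4 and 6.92 CPM in Input, with Input replicate 2 the nearest to the IP values. Its log2 fold change was 1.22 ± 0.32 (adjusted p by edgeR = 0.0250), and the call ended without IP replicate 2, IP replicate 3 or Input replicate 1 (adjusted p by edgeR = 0.0767, 0.0809 and 0.0635). Polr2i, a subunit that supports proofreading of the new RNA, had 8.63, 19.03 and 25.2 CPM in IP, against 6.72, 12.3 and 8.69 CPM in Input. Its IP replicate 1 was again the low one, and its log2 fold change of 0.93 ± 0.42 missed the threshold (adjusted p by edgeR = 0.138) but passed without that library, at 1.27 (adjusted p by edgeR = 0.0379).

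The catalytic pair was not called. Polr2a, the largest subunit, whose repeated tail is phosphorylated during transcription, had 70.2, 59.2 and 44.7 CPM in IP, against 73.5, 56.6 and 48.2 CPM in Input. The groups overlapped almost fully, and the log2 fold change was -0.033 ± 0.24 (95% interval from -0.58 to 0.51; adjusted p by edgeR = 0.938). Polr2b, which completes the active centre, had 56.97, 55.01 and 55.2 CPM in IP, against 68.4, 54.4 and 39.8 CPM in Input. Its IP values lay within the Input range, and the log2 fold change was 0.040 ± 0.23 (95% interval from -0.47 to 0.55; adjusted p by edgeR = 0.920). The difference between the large and the small subunits was not tested as such.

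**Figure D2:**
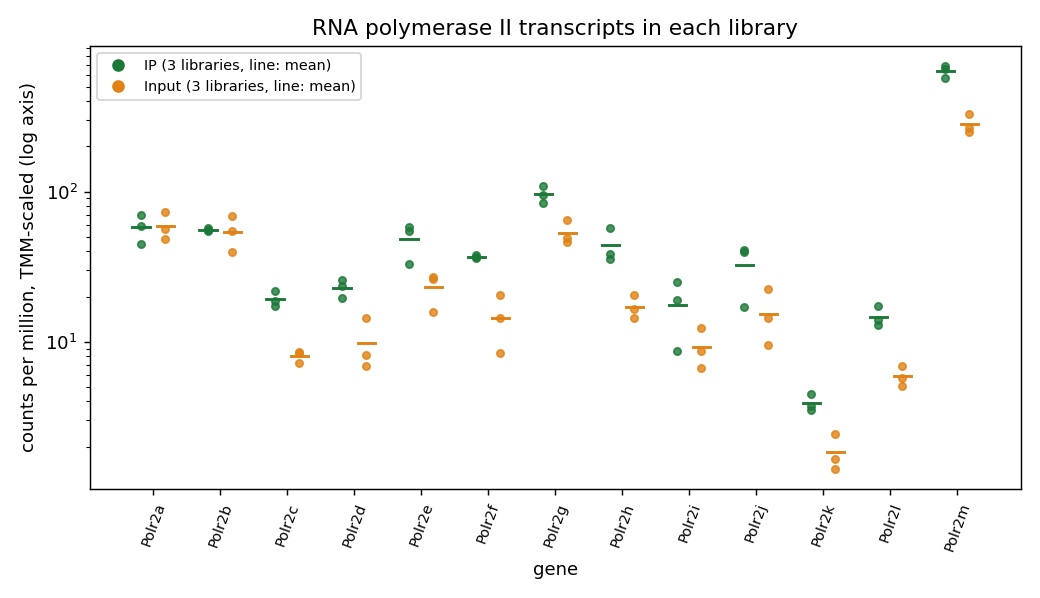
Level of each polymerase II transcript (x axis) in TMM-scaled CPM on a log axis, with 1 point per library and a line at the mean of the 3 IP and the 3 Input libraries. Polr2a and Polr2b overlap between the groups, and for the other genes except Polr2i and Polr2j all IP points lie above all Input points.

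RefSeq promoter windows (GRCm38.p6, 250 bases before to 50 bases after the start) were found by symbol for 49 of the 59 genes. Those of Polr2m and Polr2c are shown because these genes were called higher under every length setting below, that of Polr2f for a shared subunit that rose, and that of Polr2a for the largest subunit, which was not called. Capitals mark matches, on either strand, to CCGGAAG (an ETS family core), the NRF1 palindrome, AAGATGG (a YY1 core), CCAAT or TATAAA.
Polr2m (chr9:71485934-71486233, minus strand): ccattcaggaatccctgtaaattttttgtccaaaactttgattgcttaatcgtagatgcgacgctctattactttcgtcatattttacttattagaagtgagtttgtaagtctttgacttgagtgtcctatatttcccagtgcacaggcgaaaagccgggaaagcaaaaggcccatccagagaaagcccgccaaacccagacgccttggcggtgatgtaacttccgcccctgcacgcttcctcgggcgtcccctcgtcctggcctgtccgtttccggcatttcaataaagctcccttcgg
Polr2c (chr8:94857200-94857499, plus strand): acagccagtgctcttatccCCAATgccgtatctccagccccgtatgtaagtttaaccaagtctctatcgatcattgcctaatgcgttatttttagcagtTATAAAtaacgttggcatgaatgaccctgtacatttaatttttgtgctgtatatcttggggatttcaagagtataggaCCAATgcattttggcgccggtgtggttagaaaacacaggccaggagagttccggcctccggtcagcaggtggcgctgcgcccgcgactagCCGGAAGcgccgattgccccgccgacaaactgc
Polr2f (chr15:79141075-79141374, plus strand): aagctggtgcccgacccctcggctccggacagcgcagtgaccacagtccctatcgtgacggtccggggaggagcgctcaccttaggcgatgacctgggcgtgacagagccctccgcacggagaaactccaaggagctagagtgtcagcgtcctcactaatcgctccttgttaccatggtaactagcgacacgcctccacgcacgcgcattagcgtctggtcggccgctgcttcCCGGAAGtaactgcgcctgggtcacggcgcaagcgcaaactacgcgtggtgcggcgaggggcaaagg
Polr2a (chr11:69758584-69758883, minus strand): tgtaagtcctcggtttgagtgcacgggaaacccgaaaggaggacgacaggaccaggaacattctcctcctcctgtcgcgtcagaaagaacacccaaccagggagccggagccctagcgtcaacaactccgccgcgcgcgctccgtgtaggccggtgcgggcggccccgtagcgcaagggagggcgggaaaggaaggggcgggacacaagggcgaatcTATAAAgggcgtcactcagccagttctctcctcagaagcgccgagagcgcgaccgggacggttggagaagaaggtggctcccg

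The windows of these 4 genes differed in what they held. The window of Polr2a has a TATAAA whose first base lies 33 bases before the start. That of Polr2f has CCGGAAG 17 bases before the start. That of Polr2c has CCGGAAG 17 bases after the start with 2 CCAAT and 1 TATAAA further upstream. The first of the 2 windows listed for Polr2m has none of the letters searched, and the other was not searched. Among the 49 windows, 14 (28.6%) held CCGGAAG, against 9.12% of 27025 RefSeq promoter windows. These 27025 windows were not limited to the genes tested, and no share among tested genes was taken. CCAAT was in 16 of the 49 (32.7%) against 37.9% of all, TATAAA in 5 (10.2%) against 14.2%, AAGATGG in 4 (8.16%) against 6.47%, and the NRF1 palindrome in 0 against 0.977%. A match describes letters in the window and not a bound site.

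Polymerase I transcripts went both ways. Polr1d, a small subunit that polymerases I and III share and that helps to start their assembly, had 59.6, 70.3 and 66.3 CPM in IP, against 27.2, 36.3 and 35.1 CPM in Input. All IP libraries were above all Input libraries, and the log2 fold change was 0.99 ± 0.20 (adjusted p by edgeR = 0.00854). Its assembly partner Polr1c, also common to polymerases I and III, had 27.2, 27.7 and 28.3 CPM in IP, against 15.6, 24.9 and 12.5 CPM in Input. Input replicate 2 came close to the IP values, and the log2 fold change of 0.65 ± 0.28 missed the threshold (adjusted p by edgeR = 0.124) but passed with the replicate block (adjusted p by edgeR = 0.0471) and without Input replicate 2 (log2 fold change 0.98, adjusted p by edgeR = 0.0465). Polr1a, the largest subunit of polymerase I, had 19.9, 18.8 and 15.2 CPM in IP, against 30.4, 27.7 and 28.2 CPM in Input. Every IP value was below every Input value, with a log2 fold change of -0.68 ± 0.21 (adjusted p by edgeR = 0.0462), a call that ended without any one of the 6 libraries (adjusted p by edgeR between 0.0621 and 0.160) and with no filter on low counts (adjusted p by edgeR = 0.0702). Polr1b, the second-largest subunit, had 5.53, 2.88 and 4.91 CPM in IP, against 7.30, 5.16 and 0.976 CPM in Input. Its Input values differed several-fold among themselves, and its log2 fold change of -0.013 ± 0.67 had a wide interval (95% interval from -1.53 to 1.501; adjusted p by edgeR = 0.991). Polr1e, which belongs to a pair of polymerase I subunits that acts in initiation and elongation, had 7.95, 10.2 and 7.72 CPM in IP, against 9.24, 7.43 and 3.29 CPM in Input, a log2 fold change of 0.37 ± 0.42 (adjusted p by edgeR = 0.560).

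Polymerase III transcripts mostly overlapped between the groups: 7 of 10 did so. Polr3k, a subunit that takes part in RNA cleavage and in ending transcription, was the one called, with 75.7, 72.1 and 86.1 CPM in IP, against 52.4, 45.1 and 48.5 CPM in Input. The log2 fold change was 0.68 ± 0.18 (adjusted p by edgeR = 0.0244), and the call ended without IP replicate 2, IP replicate 3 or Input replicate 2 (adjusted p by edgeR = 0.0625, 0.0944 and 0.0960). With an offset for coding length the value turned to -0.083 (adjusted p by edgeR = 0.840). Polr3d and Polr3e form a pair that acts in initiation and termination, and their values stood on opposite sides of 0. Polr3d had 19.6, 21.1 and 18.02 CPM in IP, against 13.2, 11.9 and 6.70 CPM in Input, a log2 fold change of 0.88 ± 0.30 (adjusted p by edgeR = 0.0644). Polr3e had 14.9, 16.96 and 20.3 CPM in IP, against 19.1, 38.5 and 39.5 CPM in Input, a log2 fold change of -0.90 ± 0.31 (adjusted p by edgeR = 0.0640). Input replicate 1 was in the IP range for Polr3e, and without it the log2 fold change was -1.16 (adjusted p by edgeR = 0.0146). With the replicate block both passed, Polr3d at 0.94 and Polr3e at -0.84 (adjusted p by edgeR = 0.0207 and 0.0173).

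The catalytic pair of polymerase III, Polr3a and Polr3b, had log2 fold changes of -0.39 ± 0.27 and -0.37 ± 0.24, which did not pass (adjusted p by edgeR = 0.326 and 0.283). Polr3a had 15.7, 15.7 and 10.6 CPM in IP, against 19.6, 20.6 and 14.9 CPM in Input. Polr3b had 12.3, 13.7 and 16.8 CPM in IP, against 19.1, 17.5 and 18.9 CPM in Input, and here all IP values were below all Input values. Polr3c, Polr3f and one of the alternative subunits Polr3g and Polr3gl form the trimer that meets the initiation factors. Polr3f had 11.8, 16.1 and 15.1 CPM in IP, against 25.5, 24.8 and 14.4 CPM in Input, a log2 fold change of -0.59 ± 0.29 (adjusted p by edgeR = 0.168), which passed without Input replicate 3, at -0.80 (adjusted p by edgeR = 0.0449). Polr3c had 16.4, 19.1 and 21.4 CPM in IP, against 15.7, 15.5 and 19.7 CPM in Input, with overlapping groups and a log2 fold change of 0.16 ± 0.23 (adjusted p by edgeR = 0.665). Polr3g, best known from stem cells, had 3.77, 6.11 and 6.89 CPM in IP, against 6.89, 4.15 and 4.43 CPM in Input, and Polr3gl, its counterpart in differentiated cells, had 10.2, 5.26 and 8.79 CPM in IP, against 3.72, 3.05 and 7.01 CPM in Input. Their log2 fold changes of 0.12 ± 0.41 and 0.82 ± 0.45 missed the threshold (adjusted p by edgeR = 0.867 and 0.217). Per kilobase of transcript the ratio of Polr3g to Polr3gl was 0.172, 0.542 and 0.367 in IP and 0.866, 0.637 and 0.295 in Input. The order of the pair depends on the length used: per coding kilobase Polr3g and Polr3gl averaged 8.36 and 12.4 CPM in IP and 7.71 and 7.02 CPM in Input.

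**Figure D3:**
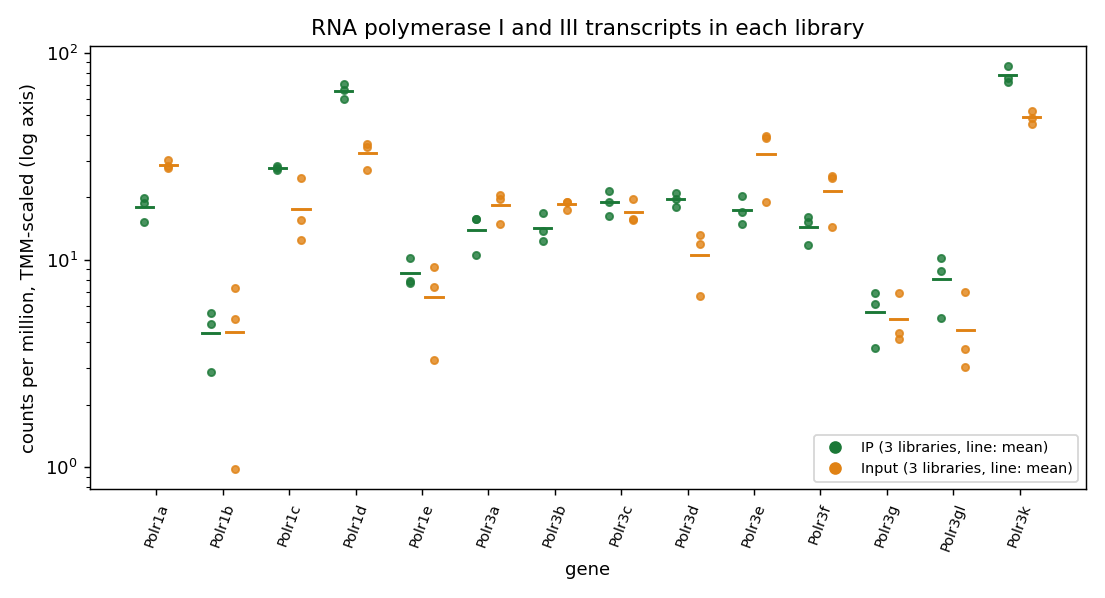
Level of polymerase I and polymerase III transcripts (x axis) in TMM-scaled CPM on a log axis, with 1 point per library and a line at the mean of the 3 libraries of IP and of Input. The IP points of Polr1c, Polr1d, Polr3d and Polr3k lie above all their Input points, and those of Polr1a and Polr3b lie below.

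Mediator subunits of the head and middle modules included all 6 that rose, and those of the kinase module both that fell. Of the 11 head subunits 3 were called higher, of the 9 middle subunits 3, of the 5 tail subunits 0 in either direction, and of the 4 kinase module subunits 2 were called lower. The median log2 fold changes of these modules were 0.61, 0.82, 0.21 and -0.51, and their median transcript lengths 1675, 1920, 3410 and 9921 bases. Of all genes tested, 9.6% were called higher and 15.6% lower. Of coding genes in the longest 10%, where the 4 kinase module subunits lie, 28.6% were called lower. The placing of Med19, Med26 and Med27 to Med30 in modules differs between sources. Whether the modules differ was not tested.

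In the head, Med28 had 129, 127 and 144 CPM in IP, against 45.9, 61.9 and 80.7 CPM in Input. All IP values exceeded all Input values, and the log2 fold change was 1.09 ± 0.23 (adjusted p by edgeR = 0.0103). Med11, a small head subunit, had 9.28, 12.6 and 9.52 CPM in IP, against 3.65, 4.69 and 3.65 CPM in Input, a log2 fold change of 1.39 ± 0.33 (adjusted p by edgeR = 0.0171), and missed the threshold without IP replicate 2 (adjusted p by edgeR = 0.0791). Med30, which is found in animals and not in yeast, had 39.2, 27.1 and 34.1 CPM in IP, against 7.78, 8.74 and 22.1 CPM in Input. Input replicate 3 was the high one of its group, and the log2 fold change was 1.38 ± 0.41 (adjusted p by edgeR = 0.0371). That call was kept only without Input replicate 3, at 2.03 (adjusted p by edgeR = 0.00294), and ended without any one of the other 5 libraries (adjusted p by edgeR up to 0.122). Med17, a central head subunit, had 6.36, 16.4 and 18.3 CPM in IP, against 15.7, 21.01 and 15.7 CPM in Input, with IP replicate 1 far below the rest and a log2 fold change of -0.35 ± 0.39 (adjusted p by edgeR = 0.555). Med29 had 9.81, 9.78 and 9.98 CPM in IP, against 3.20, 4.85 and 7.01 CPM in Input. Med22 had 16.7, 15.5 and 15.7 CPM in IP, against 8.32, 9.58 and 13.1 CPM in Input. These head subunits had log2 fold changes of 0.97 and 0.63 with no overlap of the groups and missed the threshold (adjusted p by edgeR = 0.0887 and 0.124); without Input replicate 3 both passed (adjusted p by edgeR = 0.0267 and 0.0437), and Med29 also passed with the replicate block (adjusted p by edgeR = 0.0479). Med6, Med8, Med18, Med20 and Med27 had log2 fold changes between -0.16 and 0.61 and overlapping groups.

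In the middle module, Med31, one of the most conserved subunits, had 37.6, 39.01 and 35.8 CPM in IP, against 11.2, 17.04 and 17.02 CPM in Input. The IP values lay close together and Input replicate 1 was the lowest of its group, and the log2 fold change was 1.31 ± 0.24 (adjusted p by edgeR = 0.00570). Med4 had 20.5, 21.2 and 26.4 CPM in IP, against 9.85, 13.1 and 12.3 CPM in Input, a log2 fold change of 0.95 ± 0.24 (adjusted p by edgeR = 0.0221), and did not pass without IP replicate 2, IP replicate 3, Input replicate 1 or Input replicate 2 (adjusted p by edgeR between 0.0566 and 0.0928). The opposite-strand transcript 4930563E22Rik shares 39.2% of the Med31 transcript, and Med4 has a near-identical pseudogene, Gm9434. Med10 had 21.6, 19.4 and 21.3 CPM in IP, against 10.6, 14.2 and 6.79 CPM in Input, a log2 fold change of 0.98 ± 0.31 (adjusted p by edgeR = 0.0451), and kept its call only without Input replicate 2 (log2 fold change 1.26, adjusted p by edgeR = 0.0413; up to 0.110 without 1 other library). The annotation places a long noncoding transcript, Gm26819, on the opposite strand over 90.9% of the Med10 transcript, and without a known strand setting their reads cannot be told apart. Med21, which with Med7 forms a hinge of the module, had 54.5, 77.6 and 71.7 CPM in IP, against 23.3, 39.3 and 52.6 CPM in Input. Its neighbour Med9 had 61.3, 82.1 and 80.6 CPM in IP, against 39.2, 44.5 and 62.1 CPM in Input, and the groups overlapped for Med9 but not for Med21. Both missed the threshold (log2 fold changes 0.82 and 0.62, adjusted p by edgeR = 0.0789 and 0.0852), and both passed with the replicate block (adjusted p by edgeR = 0.00587 and 0.0166) and without Input replicate 3 (adjusted p by edgeR = 0.0273 and 0.0273). Med1, through which nuclear receptors contact Mediator, had 85.5, 118 and 122.9 CPM in IP, against 115, 134 and 112 CPM in Input, with overlapping groups and a log2 fold change of -0.14 ± 0.20 (95% interval from -0.59 to 0.31; adjusted p by edgeR = 0.643). Med19 had 5.84, 11.4 and 8.95 CPM in IP, against 3.43, 6.65 and 4.40 CPM in Input, with IP replicate 1 among the Input values. Med7, Med19 and Med26, through which elongation factors are recruited, had log2 fold changes of 0.41, 0.85 and 0.47, which did not pass. Med14, the scaffold that links the modules, had 146, 191 and 177 CPM in IP, against 155, 163 and 196 CPM in Input, a log2 fold change of -0.0011 ± 0.18 (95% interval from -0.42 to 0.42; adjusted p by edgeR = 0.997).

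In the tail, which meets many activators, none of 5 subunits passed. Med16 had 56.2, 71.3 and 78.7 CPM in IP, against 26.4, 31.3 and 56.1 CPM in Input, with no overlap and a log2 fold change of 0.86 ± 0.30 (adjusted p by edgeR = 0.0685). It passed with the replicate block (adjusted p by edgeR = 0.00449) and without Input replicate 3, at 1.26 (adjusted p by edgeR = 0.00955). Med23, a target of the activator Elk1, had 12.04, 9.46 and 6.21 CPM in IP, against 19.00, 14.3 and 16.5 CPM in Input, all IP values below all Input values, and a log2 fold change of -0.85 ± 0.31 (adjusted p by edgeR = 0.0805; 0.0336 with the replicate block). Med15, a target of SREBP activators, Med24 and Med25 had log2 fold changes of -0.22, 0.23 and 0.21 with overlapping groups.

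The kinase module, which can dock on Mediator and block polymerase II, is made of Med12 or Med12l, Med13 or Med13l, cyclin C and one of the kinases Cdk8 and Cdk19. Med12 lies on chromosome X from 101274030 to 101297465 (GRCm38, plus strand) and had 8.63, 4.62 and 3.22 CPM in IP, against 18.5, 14.9 and 10.2 CPM in Input. Each IP value was below each Input value, and the log2 fold change was -1.41 ± 0.43 (adjusted p by edgeR = 0.0416), the lowest of the 59. The call ended without IP replicate 2, IP replicate 3, Input replicate 1 or Input replicate 2 (adjusted p by edgeR between 0.105 and 0.127). Its paralogue Med12l had 69.3, 65.05 and 70.4 CPM in IP, against 89.98, 91.4 and 65.05 CPM in Input, a log2 fold change of -0.27 ± 0.19 (95% interval from -0.71 to 0.17; adjusted p by edgeR = 0.352). Per kilobase of transcript the ratio of Med12l to Med12 was 5.06, 8.87 and 13.8 in IP and 3.06, 3.86 and 4.01 in Input. Med12l was thus the higher of the pair in all 6 libraries, and the ratio was higher in IP in each of the 3 replicates, by log2 0.73, 1.20 and 1.78. Igsf10 on the opposite strand shares exon bases with the Med12l transcript (17.7% of its bases). Med13 had 138, 141 and 145 CPM in IP, against 266, 215 and 219.8 CPM in Input, a log2 fold change of -0.73 ± 0.17 (adjusted p by edgeR = 0.0148), which did not pass without IP replicate 2 or IP replicate 3 (adjusted p by edgeR = 0.0627 and 0.0548). Med13l had 88.3, 77.5 and 79.5 CPM in IP, against 96.6, 98.8 and 103 CPM in Input, also with no overlap, and a log2 fold change of -0.28 ± 0.16 that missed the threshold (adjusted p by edgeR = 0.237). Per kilobase the ratio of Med13l to Med13 was 0.728, 0.625 and 0.622 in IP and 0.412, 0.522 and 0.534 in Input, so Med13 was the higher of this pair throughout. Among the partners, Ccnc (cyclin C) had 112, 60.7 and 75.2 CPM in IP, against 45.2, 32.96 and 41.6 CPM in Input and was called higher, with a log2 fold change of 1.05 ± 0.26 (adjusted p by edgeR = 0.0199). Cdk8 and Cdk19 had log2 fold changes of 0.034 and -0.35, which did not pass (adjusted p by edgeR = 0.923 and 0.178). Med9os, the antisense transcript, had 0.284, 1.43 and 1.54 CPM in IP, against 0.652, 0.880 and 1.84 CPM in Input, near the minimum of the filter, and was not called (adjusted p by edgeR = 0.976).

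**Figure D4:**
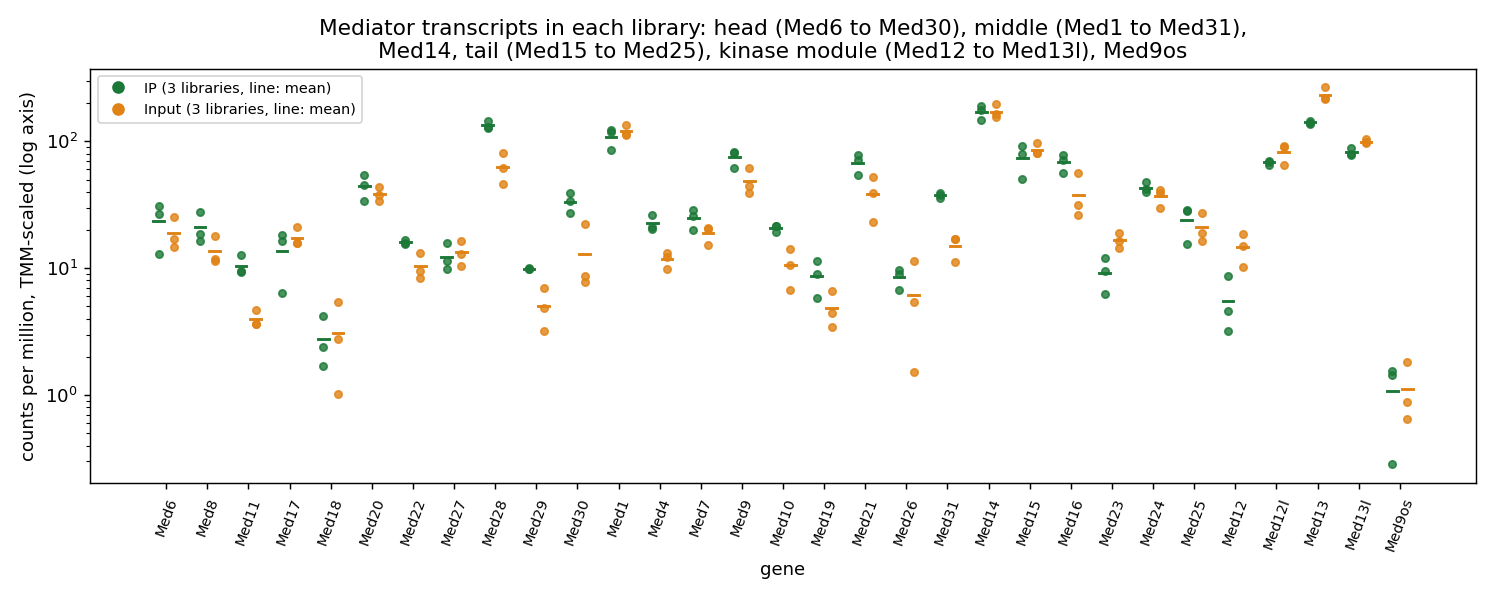
Level of each Med transcript (x axis, grouped by module as the title says) in TMM-scaled CPM on a log axis, with 1 point per library and a line at the mean of the 3 libraries of IP and of Input. The IP points of Med4, Med10, Med11, Med16, Med21, Med22, Med28, Med29, Med30 and Med31 lie above all their Input points. Those of Med12, Med13, Med13l and Med23 lie below.

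Transcript length went with these differences. The 21 transcripts shorter than 1500 bases had a median log2 fold change of 0.98, with 11 called higher and 0 lower. The 23 transcripts from 1500 to 4000 bases had a median of 0.41, with 4 higher and 0 lower. The 15 transcripts over 4000 bases had a median of -0.37, with 1 higher and 3 lower. The coding genes of the whole table showed the same order: their medians in these classes were 0.59, 0.13 and -0.24, and 25.9%, 11.7% and 4.35% of them were called higher. The shares of coding genes called lower were 7.26%, 10.5% and 20.4%, so the 3 of 15 called lower over 4000 bases were near the background. In the shortest 10% of coding genes, up to 1343 bases, 26.8% of 1425 genes were called higher, beside 11 of the 20 polymerase and Mediator transcripts of that length. In the longest 10%, from 6840 bases, 28.6% of coding genes were called lower, beside 3 of 7, which were Polr1a, Med12 and Med13.

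**Figure D5:**
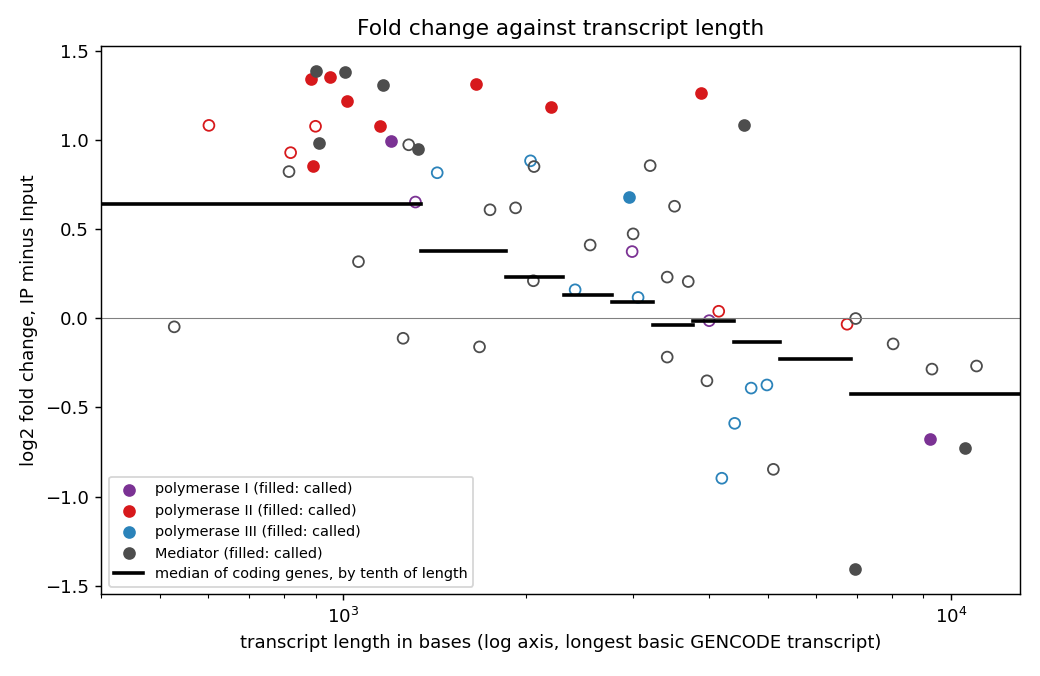
Log2 fold change of IP minus Input (y axis) against transcript length in bases (log x axis) for 58 of the 59 transcripts, with filled points called at an edgeR adjusted p under 0.05; black bars give the median of the coding genes tested in each of 10 length classes of equal size, and the first and last bars run past the axis. The bars descend from 0.64 to -0.43, and Polr2c and Med28 are the filled points high above them near 4000 bases.

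Across the 59 genes log2 fold change and log2 length had a Pearson r of -0.70 and a Spearman rho of -0.71, and within replicates 1, 2 and 3 the r of the log2 ratios was -0.58, -0.61 and -0.53. Across 14239 coding genes the r was -0.17 and rho -0.30. These are descriptions across genes, which share libraries and are no replicates. By complex r was -0.86 for polymerase III (n = 10), -0.64 for polymerase II (n = 13) and -0.62 for Mediator (n = 31), while rho was -0.82, -0.19 and -0.62. Measured from the trend of coding genes at the same length, the median was 0.51 for polymerase II, 0.25 for Mediator, 0.15 for polymerase I and 0.0077 for polymerase III. The transcripts furthest above the trend were Polr2c, Med28, Polr2m and Polr2l, by 1.30, 1.20, 0.95 and 0.93. Those furthest below were Med12, Med9os, Polr3e and Med23, at -1.08, -0.96, -0.82 and -0.68. Measured from the trend by length of the coding sequence, Polr2c, Med28, Polr2m and Polr2l lay above by 1.20, 0.57, 1.04 and 0.39.

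With an offset for transcript length in the fit, 6 of the 59 were called higher and 0 lower. The higher ones were Polr2c, Polr2l, Polr2m, Polr3k, Med28 and Med31, at log2 fold changes of 1.35, 0.99, 1.01, 0.64, 1.25 and 0.81 (adjusted p by edgeR = 0.00740, 0.0402, 0.00581, 0.0318, 0.00797 and 0.0209). Of 16496 genes the same fit called 1316 higher and 2254 lower. The higher count of the 59 was thus near the background, with no test of the difference. Polr2f, Polr1d and Polr2h did not pass, with log2 fold changes of 0.74, 0.49 and 0.76 (adjusted p by edgeR = 0.0553, 0.0684 and 0.0857). With the replicate block as well, 12 were higher and 2 lower, among them Polr2e, Polr2f and Polr2h (adjusted p by edgeR = 0.0462, 0.0317 and 0.0353) and Med12 on the lower side (adjusted p by edgeR = 0.0194). Of 16496 genes that fit called 2440 higher and 2782 lower. The length to use is itself uncertain. The coding sequence of Polr2l is 201 of 1650 bases and that of Polr3k 324 of 2948, with 1 basic coding transcript each. Med28, Polr2c and Polr2m have long and short forms. Their lengths were taken as 4560, 3881 and 2200 bases, and their shortest forms have 636, 1580 and 255 bases. With an offset for coding length, chosen after seeing the data, Polr2c, Polr2m, Med28 and Med31 were again called higher, together with Med16 (adjusted p by edgeR = 0.0102, 0.00458, 0.0446, 0.0394 and 0.0368), and Polr2l and Polr3k were not (adjusted p by edgeR = 0.452 and 0.840). The fit with this offset called 1039 of 16496 genes higher and 2239 lower.

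Per kilobase of transcript, levels within each complex were uneven. Polr2m had 289.9 ± 28.3 CPM per kilobase in IP and 127 ± 18.8 in Input (SD, n = 3). The next were Polr2g, with 108 ± 14.4 CPM per kilobase in IP and 59.8 ± 11.4 in Input, and Med21, with 83.4 ± 14.8 CPM per kilobase in IP and 47.2 ± 18.02 in Input. Polr2a and Polr2b had 8.62 ± 1.90 CPM per kilobase in IP and 8.82 ± 1.92 in Input and 13.4 ± 0.262 CPM per kilobase in IP and 13.1 ± 3.45 in Input. The lowest polymerase II transcript in both groups was Polr2c, with 4.97 ± 0.594 CPM per kilobase in IP and 2.07 ± 0.191 in Input. In polymerase I, Polr1d was highest, with 54.7 ± 4.52 CPM per kilobase in IP and 27.5 ± 4.11 in Input, and Polr1b lowest, with 1.11 ± 0.347 CPM per kilobase in IP and 1.12 ± 0.805 in Input. In polymerase III, Polr3k was highest, with 26.5 ± 2.45 CPM per kilobase in IP and 16.5 ± 1.23 in Input, and Polr3g lowest, with 1.83 ± 0.532 CPM per kilobase in IP and 1.69 ± 0.494 in Input. Med12 was the lowest Mediator transcript in IP, with 0.791 ± 0.405 CPM per kilobase in IP and 2.10 ± 0.600 in Input, while in Input Med18 was lowest, with 1.65 ± 0.768 CPM per kilobase in IP and 1.84 ± 1.34 in Input. Part of this order changes with coding length. Polr2m was still the highest, with 581 CPM per coding kilobase in IP and 255 in Input, and Polr1d and Polr1b kept their places in polymerase I. The next highest in IP became Med28 (249.97 in IP and 118 in Input) and Polr3k (241 in IP and 150.1 in Input), ahead of Polr2g (187 and 103) and Med21 (157 and 88.9). In Input Polr3k stood above Med28. By this measure the lowest polymerase III transcript was Polr3a (3.36 in IP and 4.40 in Input), the lowest polymerase II transcript in IP was Polr2a (9.83), and Med12 was the lowest Mediator transcript in both groups (0.849 in IP and 2.25 in Input).

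Other genes of the transcription machinery, from lists chosen with earlier results of these data known, were called in both directions. Of 127 such genes 16 were higher and 9 lower, beside 9.6% and 15.6% of all genes tested, with a median log2 fold change of 0.034. The higher count was near the background and the lower count below it, with no test of the difference. Without IP replicate 2, IP replicate 3, Input replicate 1 or Input replicate 2 the count of higher genes was 8, 7, 10 and 7, and without IP replicate 2 6 were lower. With the replicate block the counts were 23 and 14, beside 15.9% and 19.2% of all genes. Among 5 polymerase subunits named outside the rule, Znrd1, a small polymerase I subunit, was called higher at 1.02 ± 0.29 (adjusted p by edgeR = 0.0355), and Twistnb, Cd3eap, Crcp and the mitochondrial polymerase Polrmt had log2 fold changes between 0.11 and 0.59, which did not pass. Of 7 polymerase I initiation genes 0 were called, of 16 for polymerase III 2 were higher, Maf1, the repressor of polymerase III, at 0.84 and Snapc2 at 0.69. Of 19 general factors of polymerase II 3 were higher and 1 lower: Gtf2h5, the smallest subunit of the repair and initiation factor TFIIH, at 1.28, Tbpl1 at 0.93, Gtf2h1 at 0.91 and Gtf2a1 at -0.82. Of 16 TFIID genes 4 were higher, with Taf6, Taf9, Taf12 and Taf13 at 1.08, 0.88, 0.85 and 0.62, and 1 lower, Taf4a at -0.75.

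The genes that bind or modify polymerase II included the largest falls of these lists. Of 18 assembly, tail-binding and phosphatase genes 4 fell, beside 15.6% of all genes tested. Ctdsp1, a small phosphatase of the polymerase II tail, had 1.11, 0.827 and 1.49 CPM in IP, against 7.06, 9.35 and 14.96 CPM in Input, a log2 fold change of -3.19 ± 0.46 (adjusted p by edgeR = 0.00240). Its relatives Ctdsp2 and Ctdspl had log2 fold changes of -1.54 and -1.26, and the termination factor Pcf11 had -1.80. All 3 small phosphatase genes of the list thus fell, of which Ctdspl was named only after its values were seen. The 3 that rose were Scaf1, Gpn3 and Ssu72, at 0.93, 0.84 and 0.79; Gpn3 takes part in bringing polymerase II into the nucleus and Ssu72 is another phosphatase of the tail. Of 29 elongation genes 2 rose, Nelfb and Rtf1 at 1.02 and 0.62, and 2 fell, Ccnt2, a cyclin of the elongation kinase, and Aff1 at -1.55 and -1.27. Of 14 Integrator genes 1 fell, Ints10 at -0.83, and 0 rose.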

How the data were processed

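The authors deposited raw read counts per gene, 1 table per library, whose summary rows entered no library size or test. Per the submitters' processing notes, alignment was to mm10 by STAR 2.0.0e and counting by HTSeq, with annotation, counting mode and strand setting not given in the sources used here. Ambiguous records were 1.53% to 1.92% of the total in IP and 7.37% to 13.2% in Input. Records in no annotated feature were 7.65% to 7.85% in IP and 14.0% to 17.7% in Input. Whether the ambiguous share lowered the Input counts of genes with exon overlaps or near-identical copies was not tested. Counts were filtered with filterByExpr, scaled with TMM and compared between IP and Input in edgeR 4.0.16 under R 4.3.3 (quasi-likelihood test, two-sided), with Benjamini-Hochberg adjustment over 16496 genes and a threshold of 0.05. Errors after a log2 fold change are its SE.

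Groups and replicate numbers came from the titles; lanes differ between the replicate numbers and cannot be told apart from them. Deviations from the group means of same-numbered libraries correlated across genes at 0.271, 0.113 and 0.141, all above 0.1. On this ground libraries of 1 number count as pairs, although libraries of unlike number were not compared in this way. The fit without the block stayed the main one, and it leaves the pairing out. With the block 23 of the 59 transcripts were higher and 5 lower, against 16 and 3, so some described as missing the threshold passed there. No libraries of a group agreed within sampling noise (mean chi-square per gene at least 54.8, where 1 is expected). Lengths are of the longest basic GENCODE M21 transcript (GRCm38), found for all 59 names; the length offset was a loess fit per library (span 0.5). Near-identical copies were searched at 90% identity over 40% of a transcript. DESeq2 1.42.0 and limma 3.58.1 were alternatives. The script was tested on simulated counts of 16496 genes. It called 0 of 57 genes changed by log2 0.5, 2 of 74 changed by 1 and 36 of 69 changed by 2. Of its 42 calls 4 were false, whereas the data gave 4149 calls over as many genes. The simulated setting thus differed from the data, and its shares called do not carry over to them. The members and lists were chosen with earlier results of these data known. All members but 1, which is not reported here, are described; from each other list at most 3 called genes per direction are named, largest first; Taf13 and Ctdspl were added after their values were seen. Precision was limited by the spread between libraries of a group as well as by counting error.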

Additional observations from a re-analysis of the deposited data

How the results depend on the processing

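The counts of 16 higher and 3 lower transcripts stayed within 1.5 times under RLE, library-total and upper-quartile scaling, other filters, limma-voom, GC offset and leaving out clone accessions and abundant noncoding RNA. DESeq2 called 5 lower, as did the replicate block (5), which also called 14 other transcription genes lower. The transcript length offset gave 6 higher, 0 lower and a polymerase II median of 0.56 (0.54 with the block, and 15 other transcription genes lower). The coding length offset, chosen after seeing the data, gave 5 higher, 0 lower, 9 other genes higher and a polymerase II median of 0.52, and with the block 1 lower and a median of 0.51. The cause of the lost calls was not tested. Without 1 library or replicate number the ranges were 0 to 20 higher, 0 to 3 lower, 0 to 17 and 1 to 9 for the other genes, and 0.97 to 1.31 for the polymerase II median (counts of higher and lower members 9 and 3 without replicate 1, 0 and 0 without replicate 2, 12 and 0 without replicate 3, with 2 libraries a group each). Without replicate 2, 83 of 16632 genes were called higher in all, and the cause was not tested. With the block, no call was lost. Errors were widest for Med9os, Med18 and Polr1b (SE 0.83, 0.67 and 0.67).

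Signs changed, under library totals, Polr2b at -0.0070, and under upper-quartile factors, Polr2b at -0.049, and under no filter, Med14 at 0.0071, and under a filter of 1 CPM in 3 libraries, Polr2b at -0.010. Further changes were, under limma-voom, Med18 at 0.020 and Polr1b at 0.33, and under the replicate block, Med18 at 0.0048 and Polr1b at 0.27, and under transcript length offset, Med1 at 0.30, Med12l at 0.33, Med13l at 0.22, Med14 at 0.37, Med20 at -0.010, Med6 at -0.27, Polr1b at 0.091 and Polr2a at 0.32, and under transcript length offset with replicate block, Med1 at 0.28, Med12l at 0.35, Med13l at 0.23, Med14 at 0.37, Med20 at -0.028, Med6 at -0.31, Polr1b at 0.37 and Polr2a at 0.32. Others were, under coding length offset, Med1 at 0.32, Med12l at 0.33, Med13l at 0.31, Med14 at 0.43, Med20 at -0.19, Polr1b at 0.34, Polr2a at 0.52, Polr3a at 0.018, Polr3g at -0.28 and Polr3k at -0.083, and under coding length offset with replicate block, Med1 at 0.30, Med12l at 0.34, Med13l at 0.31, Med14 at 0.43, Med20 at -0.20, Med6 at -0.049, Polr1b at 0.61, Polr2a at 0.51, Polr3a at 0.013, Polr3g at -0.25 and Polr3k at -0.051, and under transcript GC offset, Med14 at 0.14 and Med25 at -0.051, and under transcript GC offset with replicate block, Med14 at 0.14, Med18 at 0.099, Med25 at -0.084 and Polr1b at 0.24. The last were, under removal of clone accessions and abundant noncoding RNA, Med14 at 0.019 and Polr1b at 0.0073. Without 1 library or replicate number the ranges that crossed 0 were Med1 from -0.28 to 0.016, Med14 from -0.12 to 0.12, Med15 from -0.41 to 0.011, Med17 from -0.68 to 0.0037, Med18 from -0.996 to 0.79, Med26 from -0.080 to 1.29, Med27 from -0.47 to 0.12, Med9os from -0.45 to 0.51, Polr1b from -0.56 to 0.54, Polr2a from -0.18 to 0.16, Polr2b from -0.13 to 0.25 and Polr3g from -0.15 to 0.60. Of the 19 called transcripts, Polr3k alone changed sign, under the coding length offsets.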
